A study of Drosophila melanogaster with 13 samples.

Results

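The dpr and DIP genes of Drosophila melanogaster encode neuronal cell surface proteins of the immunoglobulin superfamily. All rows of the count table whose symbol is dpr followed by a number, or DIP- followed by a Greek letter name, were taken, which gave 30 of 17737 genes, 21 dpr and 9 DIP genes. Both families have immunoglobulin domains outside the cell. A Dpr protein on the surface of a neuron binds particular DIP proteins on the surface of another, and such pairs act in partner choice between axons and dendrites, in the layering of the optic lobe, in synapse formation at the larval neuromuscular junction and in cell survival. Because each neuron type carries its own combination of these genes, the set held by a cell is often treated as part of its wiring identity. Dpr is short for defective proboscis extension response, the phenotype for which dpr1 was named, and DIP for Dpr-interacting protein.

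RNA was sequenced from GFP-labelled neurons drawn by hand into a glass pipette from protease-treated fly brains. There were 4 pools of TRH-Gal4 neurons (TRH pools 40, 45, 60 and 57), 1 pool of sNPFR-Gal4 neurons (sNPFR pool 16) and 8 single sNPFR-Gal4 neurons (cells 1 to 7 and 10). These numbers are the ones in the sample titles and serve as names only. TRH-Gal4 is a driver named for tryptophan hydroxylase, the enzyme that starts serotonin synthesis, and sNPFR-Gal4 is named for the short neuropeptide F receptor. The labels put a pool at 15 to 60 cells and its amplification at 12 PCR cycles, against 17 for a single cell. TRH-Gal4 brains were dissociated, whereas sNPFR-Gal4 brains were pinned, so driver, handling and, for the cells, PCR cycles cannot be told apart. Age, sex and the number of animals were not given in these sources, so p-values measure the spread between these libraries, which may be technical. A driver labels whatever cells express it, and the labels name no neuron type beyond the driver.

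Depth ran from 8.72 to 15.6 M reads in the TRH pools, was 56.1 M reads in the sNPFR pool, and ran from 3.38 to 67.96 M reads in the cells. Genes at 10 CPM (reads per M reads of the library) or more numbered 5119 to 5686 in a TRH pool, 2798 in the sNPFR pool and 784 to 1896 in a cell. Trh, the neuronal tryptophan hydroxylase gene, stood at 13868 ± 2432 CPM across the TRH pools (SD, n = 4) and at 0 reads in the sNPFR pool, with 2 reads over all cells. The receptor gene sNPF-R reached 10 CPM in 5 of 8 cells and in all 4 TRH pools, so it did not divide the libraries by driver. The 5 neuronal markers summed to 6673 to 8152 CPM across the TRH pools, and the sNPFR pool had 5892 CPM and the cells 6508 to 14317 CPM. All 5 reached 10 CPM in every TRH pool, 4 of them in the sNPFR pool and 2 in every cell. The marker elav stood at 261.1 ± 77.4 CPM across the TRH pools, at 1.37 CPM in the sNPFR pool and at 0 to 879.9 CPM in the cells. What this means for dpr and DIP genes with 0 reads was not tested. The 11 glial markers summed to 92.6 to 601.6 CPM across the TRH pools. They came to 1634 CPM in sNPFR pool 16, mostly Eaat1 and alrm with repo, nrv2, Gat, moody and wrapper at 0 reads, and 2.91 to 528.7 CPM in the cells. The part of glial RNA in the dpr and DIP values was not tested.

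Most of the family was present in a TRH pool, and a small and varying subset in a single sNPFR neuron. A gene was taken as present at 10 CPM or more of a library's reads. TRH pools 40, 45, 60 and 57 held 23, 26, 28 and 26 of the 30 genes, beside 28.9% to 32.1% of all genes. The sNPFR pool held 13, beside 15.8% of all genes. The cells held 4 to 13, with a median of 8.5, beside 4.42% to 10.7% of all genes (median 8.89%). The share of all genes present thus fell in the same order as the count of members. In a pool, genes present together need not be in the same neuron, and in any bulk library fewer cells with a gene and less RNA per cell cannot be told apart.

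**Figure D1:**
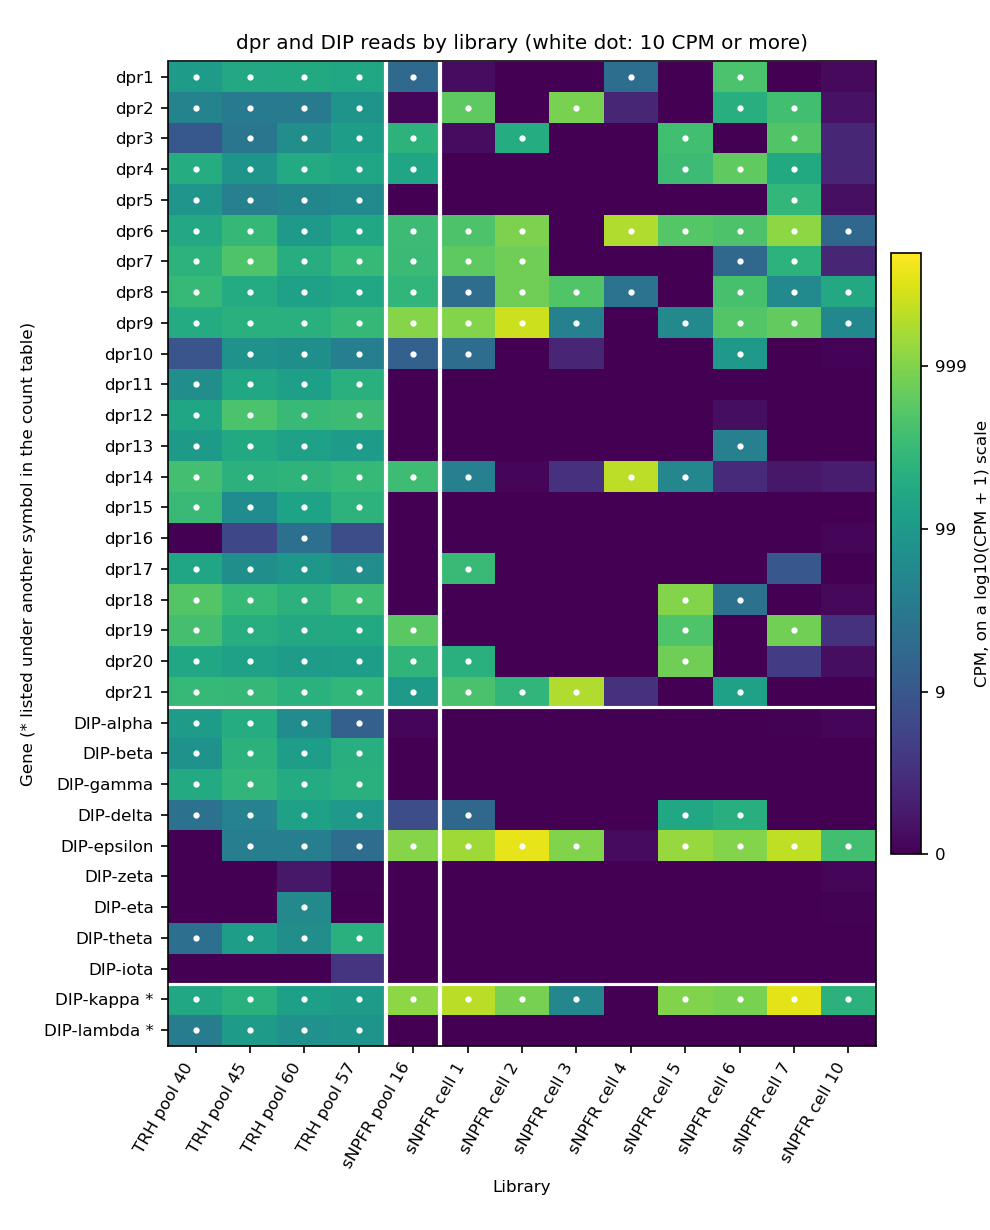
Level of each dpr and DIP gene in each library, with libraries on the horizontal axis, genes on the vertical axis and colour giving CPM on a log10(CPM + 1) scale. White dots mark 10 CPM or more. The TRH columns are filled in nearly every row, while the 8 cells hold 4 to 13 of the 30 genes, in 8 different sets, with DIP-epsilon, dpr6, dpr8 and dpr9 each in 7 cells. The bottom rows, marked with a star, are a pair of family genes listed under other symbols in the count table.

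In all 4 TRH pools, 23 of the 30 genes were present, against 22.03% of all genes. These were 18 dpr genes and DIP-alpha, DIP-beta, DIP-gamma, DIP-delta and DIP-theta. A further 5 genes were present in some TRH pools only. dpr3 rose above the limit in pools 45, 60 and 57 and stood just under it, at 9.28 CPM, in pool 40. dpr10 did the same, with 8.60 CPM in pool 40. dpr16 and DIP-eta were present in pool 60 only, at 21.3 and 53.8 CPM, and DIP-eta had 0 reads in the other 3 TRH pools. DIP-epsilon was at 0 reads in TRH pool 40 and at 20.05 to 37.7 CPM in the other 3. DIP-zeta and DIP-iota reached 10 CPM in no library, with 0.731 and 2.63 CPM as their highest values.

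The 13 genes of the sNPFR pool were 12 dpr genes (dpr1, dpr3, dpr4, dpr6 to dpr10, dpr14 and dpr19 to dpr21) and a lone DIP gene, DIP-epsilon. All 13 were also present in at least 1 cell. Over all genes, 15.8% were present in the sNPFR pool. Another 13 members had 0 reads in the sNPFR pool despite its 56.1 M reads, among them dpr5, dpr11, dpr12, dpr13, dpr15, dpr17, dpr18 and DIP-gamma. A count of 0 there allows up to 3 reads, or 0.0535 CPM, which covers counting error only. In at least 1 cell but not in the sNPFR pool were 6 genes, dpr2, dpr5, dpr13, dpr17, dpr18 and DIP-delta. For dpr2 the contrast was wide, with 593.9, 901.5, 214.6 and 373.4 CPM in cells 1, 3, 6 and 7 and 0.107 CPM in the pool.

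**Figure D2:**
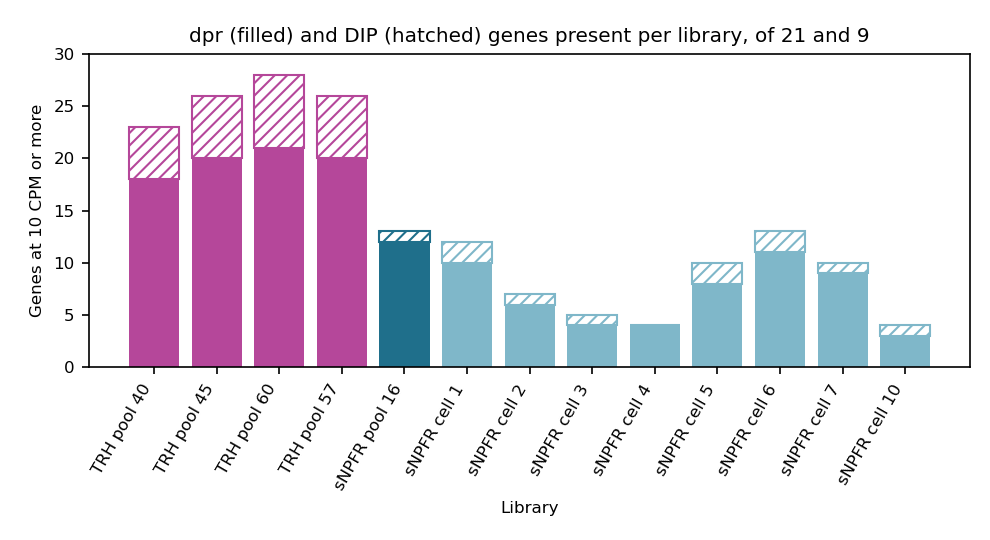
Number of dpr genes (filled) and DIP genes (hatched) at 10 CPM or more in each library, of 21 and 9. The 4 TRH pools hold 18 to 21 dpr and 5 to 7 DIP genes, the sNPFR pool 12 and 1, and the cells 3 to 11 and 0 to 2.

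In a single cell a member was usually either abundant or without reads. Of the 240 values of 30 genes in 8 cells, 142 were 0 reads, 22 were above 0 and under 1 CPM, 11 lay from 1 to under 10 CPM, 16 from 10 to under 100 CPM and 49 at 100 CPM or more. No member was present in every cell, against 0.88% of all genes (156 of 17737), and 19 were present in at least 1 cell, against 24.2% of all genes. DIP-epsilon, dpr6, dpr8 and dpr9 were each present in 7 of 8 cells, a share with an exact 95% Clopper-Pearson interval of 47.3% to 99.7%. That interval takes the cells as independent draws, which cannot be checked because the labels name no animals. It also does not allow for picking the most frequent genes. The next most frequent were dpr2, dpr7 and dpr21, in 4 cells each. dpr5, dpr13 and dpr17 were present in exactly 1 cell each.

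Cell 1 held 12 members, dpr2, dpr6 to dpr10, dpr14, dpr17, dpr20, dpr21, DIP-delta and DIP-epsilon, and was the only cell with dpr17, at 318.7 CPM. Cell 2 held 7 members and had the highest levels of dpr9 and DIP-epsilon, 2615 and 3691 CPM. Cell 3 held dpr2, dpr8, dpr9, dpr21 and DIP-epsilon, with dpr21 at 1818 CPM. It was the only cell without a read of dpr6. Cell 4 differed from the others in its makeup: it held dpr1, dpr6, dpr8 and dpr14 and no DIP gene, with dpr14 at 2109 CPM, dpr6 at 1807 CPM and DIP-epsilon at 0.296 CPM, which is 1 read. Cell 4 was also the shallowest library.

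Cell 5 held 10 members and was the only cell without a read of dpr8, and its dpr18 stood at 1013 CPM and its dpr20 at 790.2 CPM. Cell 6 held 13, the most of any cell, and was the only cell with dpr13, at 39.95 CPM. Cell 7, the deepest cell, held 10 and was the only cell with dpr5, at 283.9 CPM. Cell 10 held 4, dpr6, dpr8, dpr9 and DIP-epsilon, at 15.99, 170.0, 52.1 and 373.4 CPM. Its members summed to 621.7 CPM, whereas the other 7 cells ran from 3966 to 9280 CPM. Its glial markers summed to 528.7 CPM, the highest of the cells, with 2 of 11 at 10 CPM or more. Most of this was Tret1-1, at 472.1 CPM. The markers repo and Eaat1 reached at most 0.104 and 2.08 CPM in any cell. The part of glial RNA in the low dpr and DIP sum of cell 10 was not tested. With every library thinned to the reads of the shallowest, the counts of members in the 8 cells were the same as without thinning, and the sNPFR pool held 12 in place of 13.

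The sets differed from cell to cell. The Jaccard index, the number of genes shared by a pair of libraries over the number held by either, had a median of 0.369 over the 28 pairs of cells (range 0.125 to 0.571), beside 0.255 for all genes (0.222 to 0.367). No pair of cells held the same set. Over the 6 pairs of TRH pools the median was 0.907 (0.821 to 1), beside 0.73 for all genes (0.693 to 0.789), and pools 45 and 57 held identical sets. Summed over the members, the TRH pools gave 3681 to 4593 CPM and the sNPFR pool 4790 CPM.

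Levels were compared between genes per kilobase of exon, with exon lengths from the BDGP6 annotation. In the TRH pools dpr21 was highest, at 276.5 ± 30.2 CPM per kilobase (SD, n = 4), then dpr7 at 202.6 ± 80.9 and dpr18 at 132.7 ± 43.9. The SDs of dpr21 and dpr7 overlap, so their order is not resolved, and dpr7 led in pool 45. The dpr21 model is the shortest of the family, 993 bases of exon with 1 transcript, which raises a level per kilobase. With coding length in its place, an alternative added after seeing the data, dpr21 still ranked 1, and dpr12 and dpr7 ranked 2 and 3.

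In the sNPFR pool DIP-epsilon was highest at 333.6 CPM per kilobase, ahead of dpr9 at 223.2, dpr7 at 215.1 and dpr19 at 212.3. Over the cells the highest medians were those of DIP-epsilon, dpr6 and dpr21, at 378.5, 79.2 and 65.8 CPM per kilobase. DIP-epsilon had the highest level per kilobase of all members in 6 of 8 cells, where it made up 24.1% to 69.7% of the members' summed level, and 21.98% of that sum in the sNPFR pool. dpr14 led in cell 4 with 64.2% of the sum, and dpr21 in cell 3 with 71.8%. In the TRH pools no gene took more than 19.7% of that sum.

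**Figure D3:**
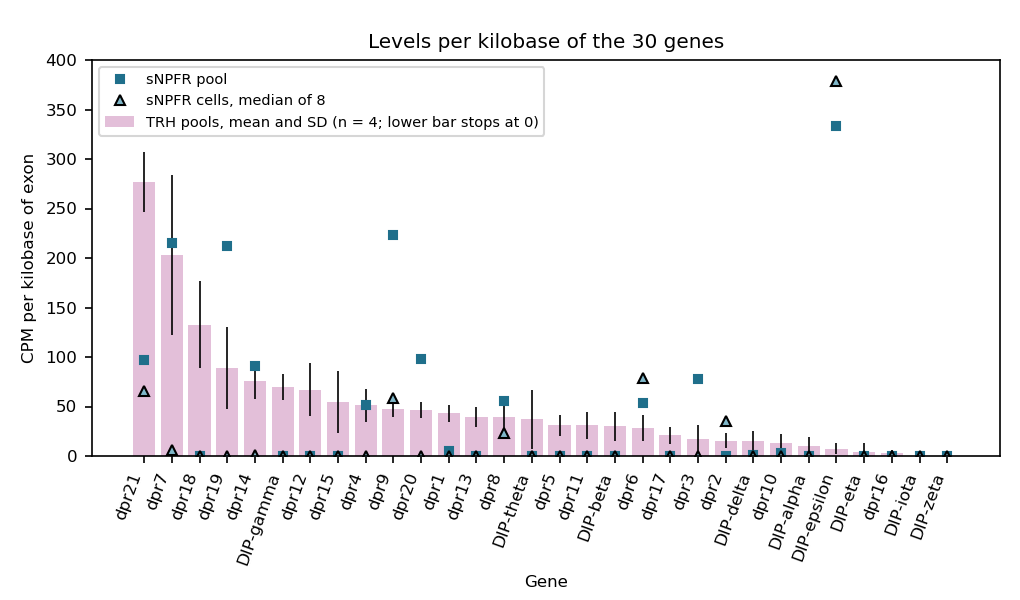
CPM per kilobase of exon for the 30 genes on the horizontal axis, as the mean and SD of the 4 TRH pools (bars), the sNPFR pool (squares) and the median of the 8 cells (triangles). dpr21 and dpr7 are highest in the TRH pools, and DIP-epsilon, low in the TRH pools, is highest in the sNPFR pool and over the cells.

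dpr21 and dpr7 were also shared across drivers. dpr21 (2R, 3066499 to 3191011, plus strand) stood at 295.4, 294.3, 231.3 and 277.3 CPM in TRH pools 40, 45, 60 and 57, at 96.2 CPM in the sNPFR pool, and from 0 to 1818 CPM over the 8 cells with a median of 65.4. It lay above both sNPFR units in every TRH pool, but its log2 difference of 0.81 ± 0.53 did not pass the test described next (adjusted p = 0.319, edgeR). dpr7 (4, 247124 to 253329, minus strand) stood at 245.0, 479.7, 200.3 and 303.0 CPM across the TRH pools, at 325.8 CPM in the sNPFR pool, and from 0 to 799.7 CPM in the cells with a median of 9.03. The groups overlapped, and its log2 difference was -0.29 ± 0.54 (adjusted p = 0.747, edgeR).

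dpr18 varied widely between sNPFR libraries. It stood at 509.0, 297.7, 240.9 and 348.6 CPM across the TRH pools, had 0 reads in the sNPFR pool, and reached 1013 CPM in cell 5 and 23.3 CPM in cell 6 (74.2 CPM over the summed cells). Every TRH pool was above both sNPFR units, while cell 5 was above every TRH pool. The log2 difference of 2.50 ± 2.26 did not pass (adjusted p = 0.475, edgeR), but against the sNPFR pool alone the adjusted p was 0.000806 (range over the alternatives 0.000806 to 0.662).

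To compare drivers, an edgeR quasi-likelihood fit over all genes set the 4 TRH pools beside 2 units of sNPFR neurons, with the 8 cells summed to make the second unit, and used Benjamini-Hochberg adjustment and a threshold of 0.05. Log2 differences are TRH minus sNPFR, and the ± beside each is an approximate standard error from the test. Over all 7426 genes tested 13.6% passed, 10.6% higher in TRH and 3.03% higher in sNPFR. Of the 30 members 27 passed the filter on low counts, which DIP-zeta, DIP-eta and DIP-iota did not. Of the 27, 7 were higher in TRH, dpr11, dpr12, dpr15, DIP-alpha, DIP-beta, DIP-gamma and DIP-theta, and 2 were higher in sNPFR, dpr9 and DIP-epsilon. The other 18 did not pass, and 14 members had an unadjusted p under 0.05 (33.3% of all genes tested). The 7 genes are those present in all 4 TRH pools and in no sNPFR library, a pattern held by 3.66% of all genes. Every TRH pool lay above both sNPFR units for 12 of the 27 tested members (27.3% of all genes tested) and below both for 5 (8.11% of all genes tested). The median log2 difference was 1.56 for the 27 members and 0.67 for all genes tested.

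These calls were sensitive to the set of TRH pools. Without TRH pool 45, 60 or 57, 0 of the 27 members passed with edgeR, and 11, 12 and 12 had an unadjusted p under 0.05. Over all genes tested, 2049 of 7136, 1946 of 6965 and 1755 of 6666 had an unadjusted p under 0.05 in these fits. All genes called then fell from 1009 to 30, 39 and 16. Without pool 40, 9 members passed, with DIP-alpha no longer among them. DESeq2 on the same counts called 15 of the 27 members, 11 higher in TRH and 4 higher in sNPFR, beside 3039 of 7426 genes tested.

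The 7 members higher in TRH were nearly without reads in every sNPFR library. Of the 4 hemocyte markers, only Pxn clearly differed the same way, at 251.6 ± 115.4 CPM across the TRH pools (SD, n = 4) and 0 in the sNPFR libraries. Hml stood at 1.77 ± 3.32 CPM across the TRH pools, and srp and NimC1 had 0 reads in all libraries. The part of hemocyte RNA in these 7 genes was not tested. DIP-gamma (3R, 28925004 to 28970372, minus strand) is a receptor whose pairing with Dpr11 is known from colour photoreceptors and their targets in the optic lobe. It stood at 182.4, 272.1, 189.1 and 221.2 CPM in TRH pools 40, 45, 60 and 57, and had 0 reads in every sNPFR library. The TRH mean of 216.2 ± 41.0 CPM (SD, n = 4) was at least 4040-fold higher than the level that 3 reads give in the sNPFR pool (adjusted p = 0.00705, edgeR). Its values varied little between TRH pools, and 83 bases of its exons lie opposite an exon of CG11828.

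dpr11 (3R, 6529169 to 6593330, minus strand), which encodes a DIP-gamma ligand, stood at 67.4, 165.1, 122.0 and 220.4 CPM across the TRH pools. It too had 0 reads in every sNPFR library, so the TRH mean of 143.7 ± 64.9 CPM was at least 2690-fold higher than the level of 3 reads in the sNPFR pool (adjusted p = 0.0158, edgeR). A second DIP-gamma ligand gene, dpr15 (3R, 12138833 to 12158595, minus strand), stood at 305.7, 61.9, 140.7 and 248.3 CPM across the TRH pools, against 0 reads in the sNPFR pool and 1 read in the cells (adjusted p = 0.0146, edgeR). Its lowest and highest TRH pools were 4.94-fold apart, and all 4 were above every sNPFR library.

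The gene dpr12 (2R, 5804712 to 5860831, plus strand) encodes the ligand of DIP-delta, a pair known from the zones of mushroom body axons. It stood at 148.5, 451.8, 306.9 and 347.5 CPM across the TRH pools, had 0 reads in the sNPFR pool, and had 3 reads in cell 6 and 0 in the other 7 cells (adjusted p = 0.0129, edgeR). No sNPFR library came near the TRH range.

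DIP-alpha (X, 3507245 to 3571649, minus strand), a receptor known from lamina and medulla neurons and from motor neurons, had the widest spread among TRH pools of the 7. It stood at 106.7, 192.3, 60.1 and 12.7 CPM in pools 40, 45, 60 and 57, against 8 reads (0.143 CPM) in the sNPFR pool and 6 reads over all cells. The log2 difference was 9.51 ± 2.03 (adjusted p = 0.0281, edgeR). Pool 57, the lowest, was just above the limit for presence. Of its exons, 158 bases are shared with CG2875 on the same strand and 106 bases lie opposite ppk8.

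DIP-beta (X, 21422115 to 21457738, minus strand) stood at 75.1, 235.0, 113.5 and 214.9 CPM across the TRH pools but had only 1 read in the sNPFR pool and 0 in single cells (adjusted p = 0.019, edgeR). DIP-theta (2L, 5626291 to 5658560, minus strand) stood at 21.5, 117.3, 66.3 and 222.1 CPM, with 0 reads in every sNPFR library. Its TRH mean of 106.8 ± 86.2 CPM was at least 2000-fold higher than the level of 3 reads in the sNPFR pool (adjusted p = 0.0222, edgeR). Both encode receptors that bind several Dpr proteins. DIP-theta shares 363 exon bases with a noncoding RNA gene on the same strand, lncRNA:CR44822.

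**Figure D4:**
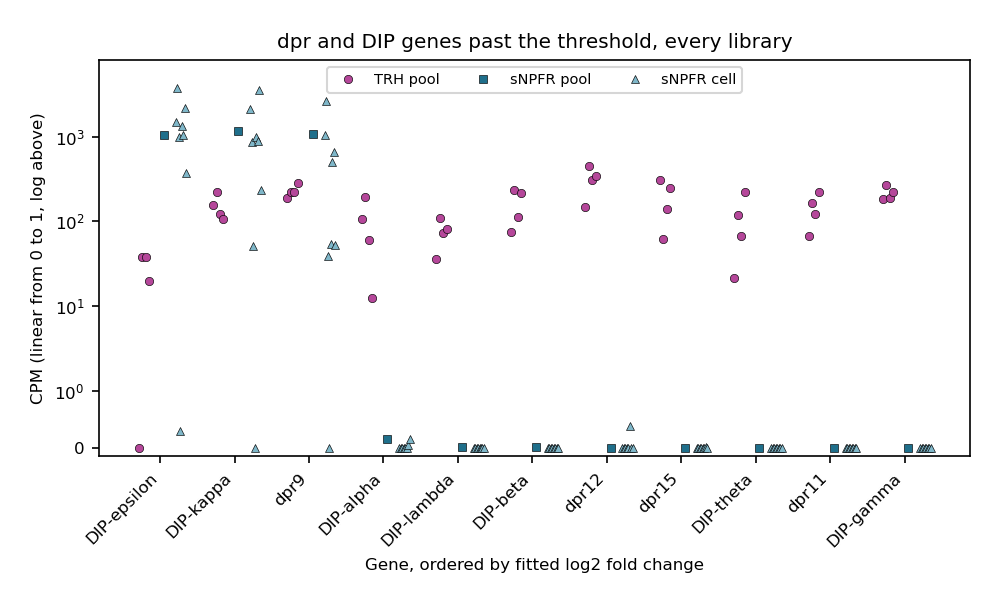
CPM in every library (linear from 0 to 1, log above) for the family genes past the threshold, ordered by fitted log2 difference, with TRH pools as circles, the sNPFR pool as a square and cells as triangles. DIP-epsilon, DIP-kappa and dpr9 are higher in the sNPFR pool than in any TRH pool, while the other 8 genes stand at or near 0 in all sNPFR libraries.

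The 2 members higher in sNPFR were not absent from TRH pools. DIP-epsilon (2L, 6377771 to 6411326, minus strand), a receptor gene, stood at 0, 37.7, 37.6 and 20.05 CPM in TRH pools 40, 45, 60 and 57. It stood at 1051 CPM in the sNPFR pool and at 1505, 3691, 990.7, 0.296, 1344, 1041, 2194 and 373.4 CPM in cells 1 to 7 and 10. All libraries of sNPFR neurons except cell 4 were above the highest TRH pool. The log2 difference was -6.42 ± 1.68 (adjusted p = 0.0495, edgeR), close to the threshold. Cell 7 gave 66.6% of the summed cell reads of DIP-epsilon, and without that cell the adjusted p was 0.054. With each cell weighted equally it was 0.0671.

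dpr9 (3R, 15054930 to 15077206, minus strand) stood at 188.9, 223.9, 220.3 and 287.4 CPM across the TRH pools, a narrow range. It stood at 1077 CPM in the sNPFR pool and at 1041, 2615, 39.4, 0, 54.0, 506.9, 653.9 and 52.1 CPM in the cells. The summed cells came to 619.3 CPM, and the log2 difference was -2.34 ± 0.37 (adjusted p = 0.0204, edgeR). Single cells fell on both sides of the TRH range: cells 1, 2, 6 and 7 were above it and cells 3, 4, 5 and 10 below it.

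Among the 18 members that did not pass, dpr6 and dpr19 came nearest, with log2 differences of -2.28 ± 0.64 (adjusted p = 0.0607) and -1.64 ± 0.47 (adjusted p = 0.0628) in the edgeR fit. dpr19 stood at 170.9 to 404.5 CPM across the TRH pools and 569.9 CPM in the sNPFR pool, and in cells 5 and 7 at 473.5 and 819.8 CPM. For dpr3 (-2.88 ± 0.98, adjusted p = 0.103) and dpr1 (2.20 ± 0.83, adjusted p = 0.123) the TRH pools did not overlap the 2 sNPFR units. This did not hold cell by cell: dpr3 reached 10 CPM in 3 of 8 cells, and cell 7 gave 87.1% of its cell reads. In cells 1, 3, 4, 6 and 10 dpr3 stood at 0 to 1.46 CPM, below every TRH pool. dpr1 stood at 110.7 to 176.0 CPM across the TRH pools and 17.4 CPM in the sNPFR pool, but reached 450.9 CPM in cell 6. dpr13 stood at 102.7 to 176.9 CPM across the TRH pools. It had 0 reads in sNPFR pool 16 and all but 1 of its cell reads in cell 6 (adjusted p = 0.139). The remaining dpr2, dpr4, dpr5, dpr8, dpr14 and dpr20 had log2 differences from -2.29 to 0.14, with groups that overlapped. For dpr2 and dpr5 the spread between sNPFR libraries was wide: dpr5 had 0 reads in the sNPFR pool and 283.9 CPM in cell 7.

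Known binding partners were read in the same library. DIP-alpha binds Dpr6 and Dpr10, DIP-gamma binds Dpr11, Dpr15, Dpr16 and Dpr17, and DIP-delta binds Dpr12, which makes 7 pairs. All 4 TRH pools held both genes of 5 pairs (DIP-alpha with dpr6, DIP-gamma with dpr11, dpr15 and dpr17, DIP-delta with dpr12), 3 held DIP-alpha with dpr10, and 1 held DIP-gamma with dpr16. The sNPFR pool and the 8 cells held both genes of 0 of the 7 pairs. Each pair includes DIP-alpha, DIP-gamma or dpr12, which reached 10 CPM in no sNPFR library, so this count followed from those genes. No pair with DIP-epsilon was listed, so the count cannot say whether sNPFR libraries hold other partners. In sNPFR cells the groups appeared from one side only: dpr6 was present without DIP-alpha in 7 cells, and DIP-delta without dpr12 in 3. A pool holds many neurons, so partners in the same pool need not be in the same cell.

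In the DIP-alpha group, dpr6 (3L, 9974651 to 10139360, plus strand) stood at 169.4, 287.9, 95.2 and 160.8 CPM across the TRH pools and 340.7 CPM in the sNPFR pool. Cells 1 to 7 and 10 gave 458.0, 917.5, 0, 1807, 530.8, 469.2, 1164 and 15.99 CPM. 6 of the 8 cells were above every TRH pool. dpr10 (3L, 10147454 to 10186108, minus strand) had 8.60, 76.4, 69.2 and 38.6 CPM across the TRH pools. It stood at 12.4 CPM in the sNPFR pool and at 19.9 and 96.6 CPM in cells 1 and 6, the only cells where it was present (log2 difference 1.84 ± 1.36, adjusted p = 0.378, edgeR).

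In the DIP-gamma group, dpr17 (3R, 12094876 to 12111420, plus strand) stood at 146.6, 69.7, 90.4 and 64.4 CPM across the TRH pools and had 0 reads in the sNPFR pool. It was at 318.7 CPM in cell 1 and 8.98 CPM in cell 7, with 0 reads in cells 2 to 6 and in cell 10 (log2 difference 2.03 ± 2.30, adjusted p = 0.576, edgeR). dpr16 (3R, 5150908 to 5170121, plus strand) was at 0, 5.37, 21.3 and 6.62 CPM across the TRH pools, with 3 reads in cell 10 and 0 elsewhere (adjusted p = 0.169, edgeR). Of its exons 118 bases lie opposite an exon of cno.

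For DIP-delta (3L, 5424109 to 5442399, plus strand), the receptor of Dpr12, the TRH pools gave 23.8, 43.0, 129.1 and 100.7 CPM and the sNPFR pool 6.52 CPM. Cells 1, 5 and 6 gave 17.0, 156.8 and 215.0 CPM, and the other 5 cells had 0 reads. The log2 difference was 1.56 ± 1.29 (adjusted p = 0.432, edgeR). Cells 5 and 6 were above every TRH pool, and cell 1 was below all 4.

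Spread between TRH pools was described for the members present in all 4, without a test. The coefficient of variation had a median of 66.2% over 5 DIP genes (18.9% to 82.4%) and 35.5% over 18 dpr genes (10.9% to 57.6%). Over the 3907 genes of the whole table present in every TRH pool it was 34.7%. The extremes were dpr21 and DIP-alpha.

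A pair of further family members is listed in the count table under older symbols, CG31814 (DIP-kappa) and CG45781 (DIP-lambda) by reference names, and so fell outside the rule on symbols. DIP-kappa (2L, 13676860 to 13717320, minus strand) stood at 157.4, 221.0, 122.7 and 108.1 CPM across the TRH pools and 1157 CPM in the sNPFR pool. Cells 1 to 7 and 10 gave 2092, 864.7, 51.2, 0, 985.3, 894.0, 3555 and 235.1 CPM, present in the same 7 cells as DIP-epsilon. The log2 difference was -4.06 ± 0.50 (adjusted p = 0.0129, edgeR). Cell 7 gave 83.9% of the summed cell reads of DIP-kappa. The call was lost with limma-voom (adjusted p = 0.739) and without TRH pool 45, 60 or 57. DIP-lambda (2R, 326768 to 705848, plus strand) stood at 35.9, 108.5, 73.8 and 80.5 CPM across the TRH pools, but had only 1 read in the sNPFR pool and 0 in single cells (adjusted p = 0.0226, edgeR). With both added, 11 family genes passed (8 in the TRH direction and 3 in the other), and cell 4 still held 0 of 11 DIP genes.

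Other immunoglobulin superfamily genes with wiring roles, and apart from them the secreted binder cDIP, were read in the same fit. Of the beat family, receptors for Side proteins in axon guidance, 4 of 12 tested genes were higher in TRH and 0 higher in sNPFR, with a median log2 difference of 0.38. These were beat-Ia at 383.6 ± 230.7 CPM, beat-Ib at 182.6 ± 18.2, beat-Ic at 304.2 ± 63.7 and beat-Vc at 168.8 ± 107.3 (SD, n = 4 TRH pools). Reads in sNPFR libraries were 0 for beat-Ia, beat-Ib and beat-Vc, and beat-Ic stood at 0.0891 CPM in the sNPFR pool. Of the side family 2 of 8 tested genes were higher in TRH and 0 in sNPFR, side-IV and side-VIII, at 16.4 ± 3.53 and 118 ± 74.7 CPM across the TRH pools, with a median of 1.69.

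Of the Dscam family 4 genes were tested, with a median log2 difference of 0.11. Dscam3 was higher in TRH (292.3 ± 81.0 CPM against 0 reads in all sNPFR libraries, adjusted p = 0.00552). Dscam2 was higher in sNPFR (226.8 ± 52.9 CPM against 1016 in the sNPFR pool and 2271 in the summed cells, log2 difference -3.47, adjusted p = 0.0158), and it was present in all 8 cells. None of 4 genes of the irre cell recognition module and none of 2 tested relatives of Lachesin passed in this edgeR fit, with medians of -0.45 and -1.75 and 1 and 0 genes at an unadjusted p under 0.05. The secreted common binder cDIP stood at 1.43 ± 1.65 CPM across the TRH pools and 0 in the sNPFR libraries (adjusted p = 0.182). All 8 of these calls were lost without TRH pool 45, and also without pool 57.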

How the data were processed

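The table deposited by the authors gives raw counts, as whole reads, of 17737 genes in 13 libraries. STAR, edgeR and the BDGP6 build are named without versions in the submitters' processing notes. How reads were counted, with which annotation release and strand setting, was not given in these sources. Per the labels' protocols the kits were SMART-Seq v4 and Nextera XT, which do not mark strand, so reads of overlapping genes cannot be told apart. PCR copies cannot be told from molecules, so an interval or floor covers counting error alone. The authors also deposited a normalized table, which was not used, and 1 column matching no sample was left out.

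CPM was computed from column totals. Identifiers of 17599 genes matched the reference names. Exon lengths and coordinates are from Ensembl release 115 (BDGP6). The TRH pools were tested against the sNPFR pool and the summed cells by the quasi-likelihood test of edgeR 4.0.16 under R 4.3.3, after filterByExpr and TMM scaling, with a Benjamini-Hochberg threshold of 0.05 and 4 residual degrees of freedom. The script was tested on simulated data. The alternatives numbered 22 and included DESeq2 1.42.0 and limma 3.58.1. Cells were summed because the labels name no animals. Every dpr and DIP row is named. Full values are given for members past the threshold, the 3 partner groups and the 3 highest per kilobase, and from other lists for at most 4 genes past the threshold. The members, lists and partner groups were chosen with earlier results of these data known.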

Additional observations from a re-analysis of the deposited data

Results flagged for a closer look

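Of 60 comparisons of a member's libraries within the TRH pools or within the cells, on a log2(CPM + 1) scale, 15 had a library far from the others. The rule's chance rate of about 1 in 20 does not hold for genes mostly at 0 reads. There, a lone value above 0 is flagged by construction, so no excess is read from the 15. In the TRH pools the flagged genes were DIP-epsilon, with 0 CPM in pool 40, DIP-eta, with 53.8 CPM in pool 60 and 0 in the others, DIP-zeta, with 0.731 CPM in pool 60, and DIP-iota, with 2.63 CPM in pool 57. In the cells, DIP-epsilon was far below the others in cell 4, at 0.296 CPM.

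High single cells were cell 7 for dpr5, at 283.9 CPM, cell 6 for dpr13, at 39.95 CPM, cell 1 for dpr17, at 318.7 CPM, and cell 5 for dpr18, at 1013 CPM. The other 6 were values of 1 to 3 reads beside cells with 0 reads or a lower CPM. They were dpr12 in cell 6 at 0.382 CPM, dpr15 in cell 7 at 0.0147 CPM, dpr16, DIP-alpha and DIP-zeta in cell 10 at 0.156 CPM each, and DIP-eta in cell 10 at 0.0521 CPM. DIP-alpha had 3 reads in cell 7 as well as in cell 10, which in the deeper cell 7 is 0.0441 CPM.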

How the results depend on the processing

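The main comparison called 9 of 27 tested members, 7 higher in TRH and 2 higher in sNPFR, beside 1009 of 7426 genes tested. No paired analysis was possible because the labels name no animals and give no pairs between the groups. DESeq2 called 15 members (11 higher in TRH, 4 in sNPFR; 3039 genes), the sNPFR pool alone 17 (13 and 4; 2745 genes) and the summed cells alone 14 (6 higher in sNPFR; 2027 genes). The family by current symbol gave 3 higher in sNPFR, as did a filter of 1 CPM in at least 3 libraries, and TMM with singleton pairing gave 4. RLE scaling, library totals, limma-voom and equal weighting of the cells each gave 1. Leaving out a library gave 0 to 10 members called (0 to 8 higher in TRH, 0 to 3 in sNPFR), 16 to 1226 genes, and 0 to 2 members present in every cell. DIP-epsilon was lost with RLE, library totals, limma-voom, equal weighting and without cell 7, and dpr9 with limma-voom.

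Directions reversed for dpr7 (log2 0.0070 with RLE or DESeq2, 0.17 with library totals, 0.082 with equal weighting), dpr14 (-0.32 with TMM with singleton pairing, -0.58 with the pool alone, -0.22 with equal weighting, and -0.16 to 0.40 with a library left out, lowest without cell 7), dpr5 (5.42 with limma-voom, 12.97 with the pool alone, 1.67 with equal weighting, and -1.39 to 9.08 with a library left out, highest without cell 7) and dpr2 (1.27 with limma-voom, 8.42 with the pool alone). The cause was not tested. Of the gene-level values 707 kept direction and side of the threshold, 68 lost the call, 25 gained it and 14 reversed. Calls higher in TRH were 77.7% of all calls, 67.2% with TMM with singleton pairing and 87.9% with library totals, where the median log2 difference of all genes was 0.41 and 1.27. Presence at another limit (1, 5, 20 or 50 CPM) gave no count of members that moved by over 1.5 times in the group summaries. A count of 0 reads is a weaker bound in the shallowest cell, where 3 reads are 0.887 CPM, than in the sNPFR pool, where they are 0.0535 CPM.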

Other observations

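Some members lie next to each other in the genome. dpr6 and dpr10 lie 8.09 kb apart on opposite strands of 3L, and both were present in 2 cells, dpr6 alone in 5, and dpr10 alone in 0. dpr4 and dpr5 lie 27.5 kb apart on 3R, and both were present in 1 cell, dpr4 alone in 2. dpr15 and dpr17 lie 27.4 kb apart on 3R and were both present in all 4 TRH pools, while in the cells dpr17 alone was present, in 1. DIP-eta and DIP-theta lie 8.35 kb apart on the same strand of 2L. Both were present in TRH pool 60, DIP-theta alone in the other 3 TRH pools, and neither in a cell.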
